A study of Homo sapiens with 24 samples.

Results

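Genes of the lysosome, of its proton pump and of autophagy were followed in U2932 cells, a line from a diffuse large B-cell lymphoma (human), after treatments labelled as MYC knockdown. The 46 genes were taken by symbol from both deposited expression tables, out of 61541 genes listed at 48 h and 19836 at 72 h. They comprise 19 hydrolases with their activator precursor, 6 proteins of the lysosomal membrane and cholesterol carriers, 15 subunits of the proton pump and 6 autophagy genes, among them the transcription factor TFEB. At 48 h there were 4 libraries of cells given PNA2, a gamma peptide nucleic acid whose dose the labels give as 8 mM, 4 libraries of cells electroporated with siRNA at 500 nM, and 6 libraries of PBS controls. At 72 h there were 5 PNA2 libraries and 5 PBS libraries. The labels name no electroporated control, and do not say that replicates came from separate cultures, so that p-values measure only the spread between these libraries. For siRNA the cell line field carries other numbers than U2932, while the treatment text names U2932. The headers of 2 of the 48 h control columns are the same, and these libraries are called unnumbered a and unnumbered b.

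The lysosome degrades proteins, lipids, glycans and nucleic acids with hydrolases that work at acid pH. Its acidity comes from the vacuolar proton pump, which joins a membrane sector called V0, through which protons pass, to a catalytic sector called V1, which hydrolyses ATP. Autophagy brings cytoplasmic cargo to the lysosome, and TFEB, a basic helix-loop-helix factor, activates many of these genes through an E-box that resembles the one bound by MYC.

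MYC itself, the labelled target, had scaled values of 7181 to 8907 in the 4 PNA2 libraries, 3589 to 4184 in the 4 siRNA libraries and 5453 to 7648 in the 6 PBS libraries at 48 h. Its log2 change was 0.24 ± 0.09 (SE) for PNA2 (adjusted p = 0.096) and -0.81 ± 0.10 for siRNA (adjusted p = 0.000318). At 72 h it had 459.9 to 2032 normalized reads in PNA2 libraries and 826 to 2846 in PBS libraries (log2 change -0.18 ± 0.45, adjusted p = 0.794). These adjusted p-values, and the others below unless another test is named, come from limma fitted over all genes tested, with Benjamini-Hochberg adjustment. MYC was thus not lower in the libraries labelled PNA2 at 48 h, and PNA2 and siRNA below stand for the libraries labelled so. The summed level of 8 B-cell markers was 26560.5 to 43796 in PNA2, 42968 to 45214 in siRNA and 35936 to 39393 in PBS libraries at 48 h, and 28175 to 33639 in PNA2 and 23335 to 25305 in PBS libraries at 72 h. All 8 were detected in each group. Of 14 myeloid markers, which matter here because macrophages are rich in lysosomes, each 48 h group had 6 at 0 in all its libraries. These 6 were not the same genes in every group. The summed level of the 14 was 10.1 to 26.7 in PNA2, 9.9 to 21.5 in siRNA and 9.6 to 15.7 in PBS libraries. At 72 h 8 of the 14 were at 0 in PNA2 and 7 in PBS libraries, with sums of 33.7 to 47.8 in PNA2 and 24.4 to 68.5 in PBS libraries. The share of values from the mitochondrial genome moved with PNA2: 4.93% to 6.2% in PNA2, 2.08% to 2.37% in siRNA and 1.53% to 3.21% in PBS libraries at 48 h, and 6.15% to 8.3% in PNA2 and 3.96% to 4.63% in PBS libraries at 72 h. Its part in the results below was not tested. In such bulk RNA, fewer cells of a kind and less RNA per cell cannot be told apart.

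PNA2 replicate 2 at 48 h stood apart from the other PNA2 libraries, and results are given with and without it. Compared with each of the other 3 PNA2 libraries, its chi-square per degree of freedom over genes was 50.8 to 67.5, against 3.42 to 15.6 among those 3. It had the highest value of all 14 libraries at 48 h for 29 of the 44 members tested (65.9%), whereas it was highest for 23.6% of all genes. The other end of the range was held by PBS replicates 1 and 2, which were each lowest for 11 of the 44 members, against 6.8% and 10.1% of all genes. At 72 h, PNA2 replicate 3 was highest for 20 of 45 members (44.4%) and for 24.4% of all genes.

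**Figure D1:**
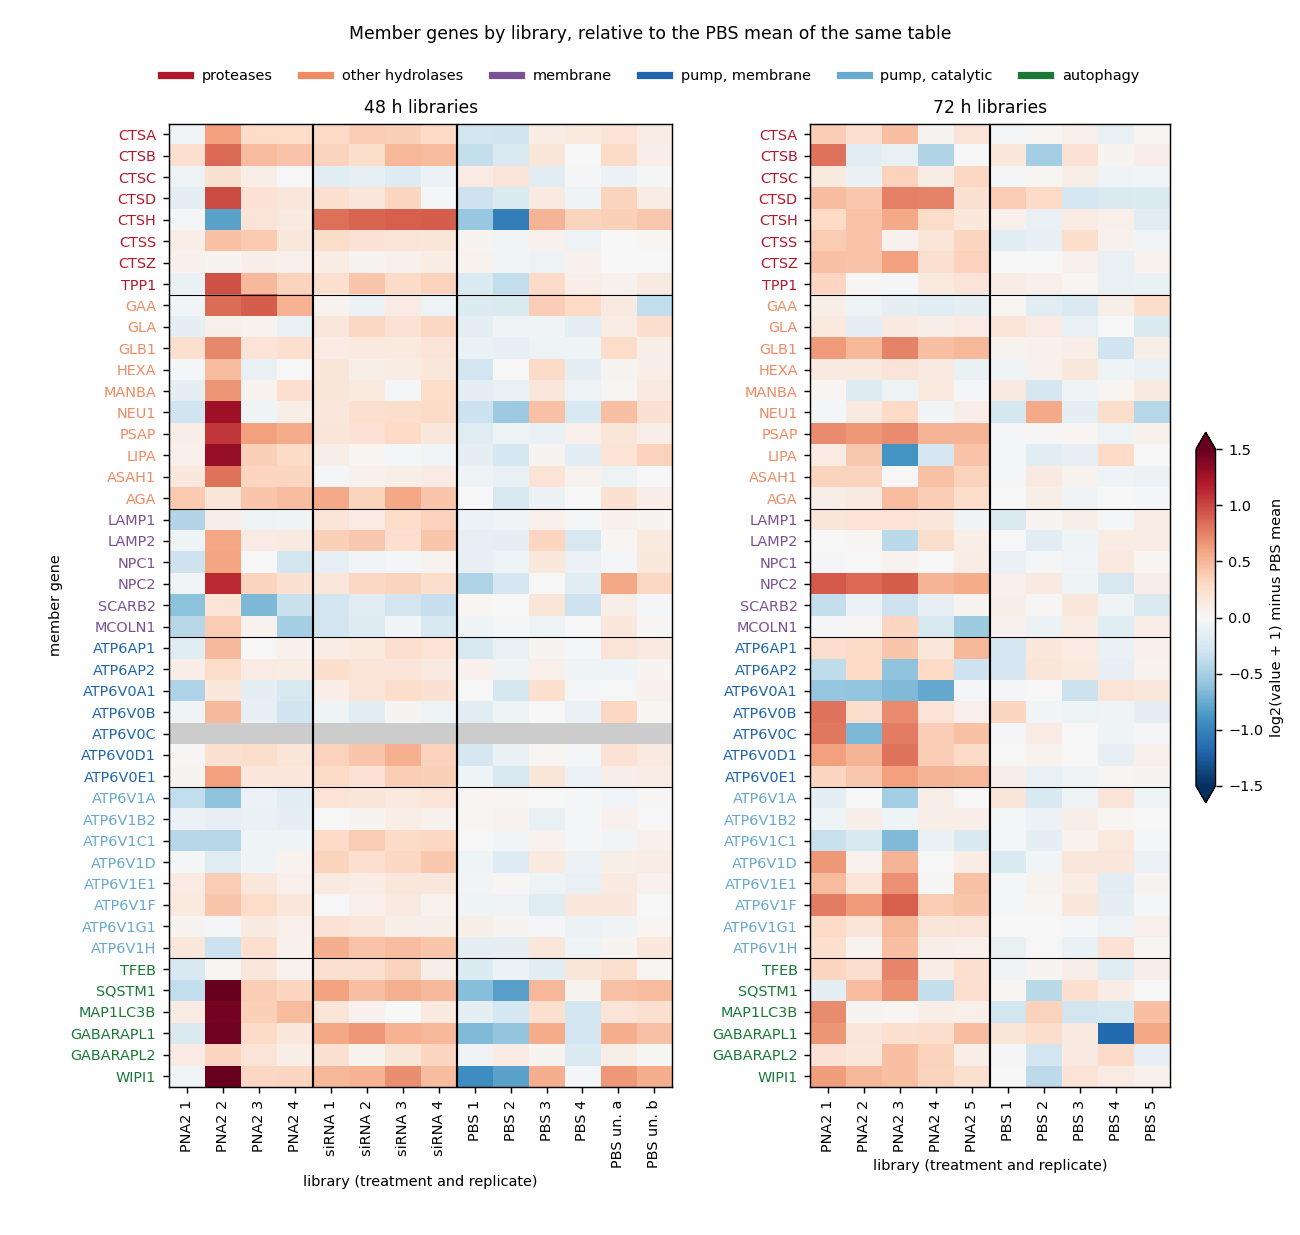
Heat map of the member genes (rows, grouped by role) in each library (columns), with the 48 h table in the left panel and the 72 h table in the right panel. Colour gives the log2 difference from the mean of the PBS libraries of the same table, "un. a" and "un. b" are the unnumbered control libraries, and ATP6V0C, not tested at 48 h, is grey there; CTSL is not drawn. PNA2 replicate 2 at 48 h, which was highest for 29 of 44 members, and PBS replicates 1 and 2 are the columns that stand apart.

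The promoters of some members hold the palindrome that TFEB binds, and these are shown because the same core is an E-box bound by MYC. Windows of 250 bases before to 50 after the start were found in RefSeq (GRCh38.p14) for 34 of the 46 members and were searched on both strands for TCACGTGA, for the CLEAR element (the same 8 bases with a G before and a C after) and for the inner CACGTG; all 3 are palindromes, and each longer match includes the shorter ones. TCACGTGA was in 6 of the 34 promoters (17.6%) and in 1.04% of all 27305 promoters in the table. CACGTG was in 9 (26.5%), against 7.43% of all promoters, and the full CLEAR element in 3 (8.82%), against 0.381%. The motifs were chosen because TFEB activates many of these genes through such an E-box. These shares are therefore a description, and the difference from all promoters was not tested. Capitals mark the longest match, and the one nearest the start where there were several, in the 6 promoters with TCACGTGA, read 5′ to 3′ on the strand of the gene.
CTSA, chr20:45891288-45891334, plus strand: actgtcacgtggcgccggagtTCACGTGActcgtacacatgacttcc
GAA, chr17:80101483-80101532, plus strand: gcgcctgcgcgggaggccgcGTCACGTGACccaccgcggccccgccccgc
LAMP1, chr13:113297189-113297238, plus strand: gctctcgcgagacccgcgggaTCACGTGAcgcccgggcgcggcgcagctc
MCOLN1, chr19:7522588-7522623, plus strand: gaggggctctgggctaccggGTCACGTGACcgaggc
ATP6V0D1, chr16:67481189-67481238, minus strand: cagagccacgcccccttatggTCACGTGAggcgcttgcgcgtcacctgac
ATP6V1G1, chr9:114587689-114587738, plus strand: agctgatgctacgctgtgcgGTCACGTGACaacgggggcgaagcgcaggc
The LAMP1 promoter held 6 copies of CACGTG, the CTSA, GAA and MCOLN1 promoters 2 each, and the ATP6V0D1 and ATP6V1G1 promoters 1 each. CTSD, NEU1 and ATP6V0B had the shorter core only.

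Control levels, given as values per kilobase of exon so that genes can be compared, were above the median of all genes tested for most members. At 48 h 33 members exceeded the median of 66.9 per kilobase in PBS libraries, and at 72 h 32 exceeded 80.1. PSAP, the precursor of the saposins that present sphingolipids to their hydrolases, was highest, with 2152 per kilobase at 48 h and 1717 at 72 h. It was followed among the members tested at both times by ATP6V1F, a small subunit of the central shaft of V1, at 1631 and 1435 per kilobase, by CTSZ, a carboxypeptidase, at 1384 and 1101, and by ATP6V1G1, a subunit of the peripheral stalks, at 1007 and 1005. LAMP1, an abundant glycoprotein of the lysosomal membrane, had 329.7 and 336.5 per kilobase, and MAP1LC3B, a ubiquitin-like protein conjugated to autophagosome membranes, 338 and 233. At the low end stood GAA, the glycogen-degrading glucosidase, with 16.7 and 21.7 per kilobase. CTSL, a cathepsin, was listed at 0 in all 24 libraries. ATP6V0C, the proton-carrying ring subunit of V0, had scaled values of 0.1 to 13.5 at 48 h but 1178 to 3233 normalized reads at 72 h. Its exons share 1080 bases with annotated genes on the same strand, and the 48 h values of ATP6V0C were therefore not read as expression levels. CTSL shares 0 exon bases with other genes on either strand. Its values in both tables were not read as expression levels either, and whether it is not expressed or was not counted was not tested. In all, 9 members share exon bases with another gene on the same strand and 19 with one on the opposite strand, for which counting can differ between tables.

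**Figure D2:**
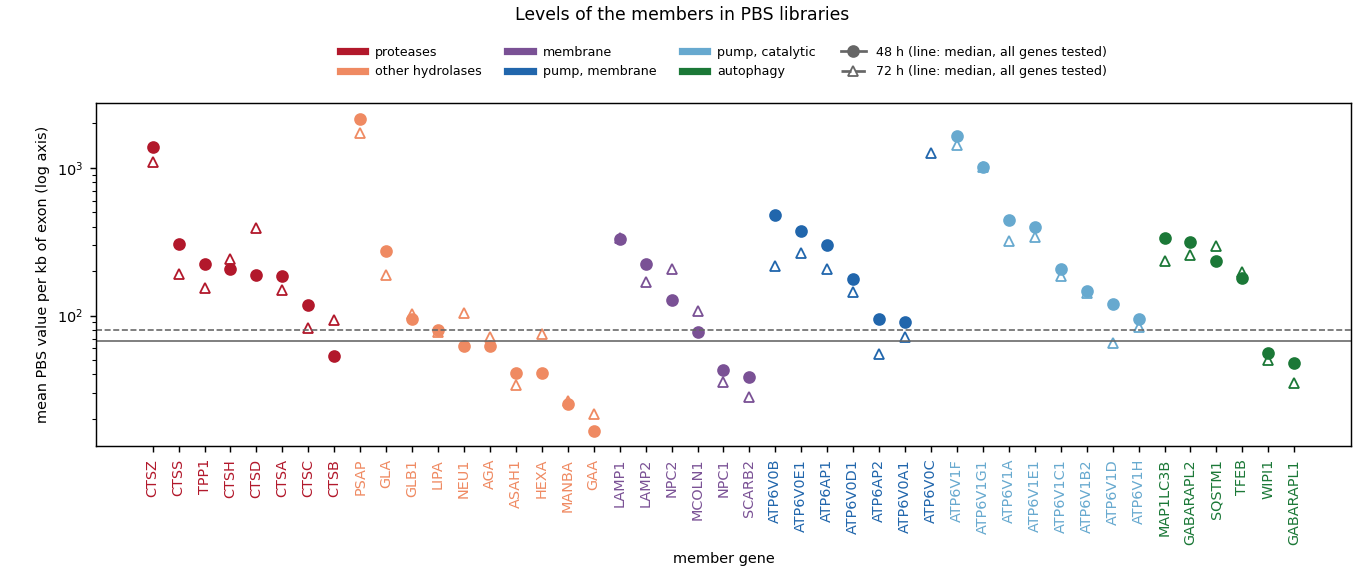
Level of each member in PBS libraries as value per kilobase of exon on a log axis, at 48 h and at 72 h, grouped by role. Circles (48 h) and triangles (72 h) are means over the PBS libraries, and the solid and dashed lines give the median of all genes tested, 66.9 at 48 h and 80.1 at 72 h; PSAP, ATP6V1F, CTSZ and ATP6V1G1 lie at the top in both tables.

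The first comparison asked how these transcripts differed after 48 h of PNA2. Among the hydrolases 6 of 18 tested were higher in PNA2 libraries than in PBS libraries and none was lower: PSAP, CTSB, ASAH1, AGA, GLB1 and CTSS. Of 14 proton pump subunits tested, ATP6V1F was higher and ATP6V1A and ATP6V1C1 were lower. Over all members 8 of 44 were higher and 2 lower, where 8.11% of all genes were higher and 8.57% lower (16.7% in either direction). With values not rescaled between libraries, 17 members were higher and 0 lower, where 14.2% of all genes were higher and 1.18% lower and the median of all genes moved by 0.19. ATP6V1A and ATP6V1C1 then had log2 changes of -0.11 and -0.05 and did not pass. Without PNA2 replicate 2 there were 6 higher (8.58% of all genes) and 5 lower (9.29% of all genes, and 17.9% in either direction); 8 calls were kept, GLB1 and ATP6V1F were lost, and LAMP1, SCARB2 and ATP6V0A1 were added, all 3 lower. The median log2 change of the hydrolases was 0.30 with that library and 0.15 without it, that of the pump 0.05 and 0.02, and the median of all genes was 0.00 in both.

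PSAP had scaled values of 7423, 14657, 10602 and 10190 in PNA2 replicates 1 to 4, against 6148 to 7848 with a median of 6928 in PBS libraries. The lowest PNA2 library lay within the control range and the other 3 above it. The log2 change was 0.58 ± 0.13 (adjusted p = 0.00908), and 0.38 ± 0.08 without replicate 2 (adjusted p = 0.00251). CTSB, a cysteine protease, had 463, 700.0, 543 and 522 in PNA2 libraries and 303 to 476 (median 403) in PBS libraries, so that 3 of 4 PNA2 libraries exceeded every control. Its log2 change was 0.50 ± 0.12 (adjusted p = 0.0124), and 0.33 without replicate 2 (adjusted p = 0.0149). ASAH1, the acid ceramidase, had 701, 1108, 787 and 785 in PNA2 libraries and 582 to 726 (median 616) in PBS libraries, a log2 change of 0.40 ± 0.11 (adjusted p = 0.0182). Replicate 1 again fell within the control range. The change of ASAH1 was 0.25 without replicate 2 (adjusted p = 0.0228). AGA, which cleaves the link between asparagine and glycans, had 217, 188, 220.2 and 228 in PNA2 libraries and 139.5 to 193.5 (median 165.5) in PBS libraries. Here replicate 2 was the lowest PNA2 library, and the log2 change was 0.36 ± 0.10 with it (adjusted p = 0.0205) and 0.40 without it (adjusted p = 0.0132). AGA did not pass when PNA2 replicate 4 was left out (adjusted p = 0.0507), nor under quantile normalization or within either of the 2 batches described below (adjusted p = 0.0582 to 0.137). For GLB1, the lysosomal beta-galactosidase, the values were 488, 681, 479 and 495 in PNA2 libraries and 381 to 502 (median 393) in PBS libraries. Only replicate 2 exceeded all controls, and the log2 change of 0.35 ± 0.10 (adjusted p = 0.0312) came to 0.21 without it (adjusted p = 0.0737). The GLB1 call was also lost without any one of PBS replicates 1, 2, 3 and 4 (adjusted p = 0.051 at the lowest and 0.0658 at the highest). CTSS, the cathepsin that processes the invariant chain for antigen presentation in B cells, had a log2 change of 0.28 ± 0.07 (adjusted p = 0.013) and 0.21 without replicate 2.

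Within the pump, the lower subunits both belong to V1. ATP6V1A, the subunit that carries the catalytic sites, had 1764, 1504, 2143 and 2050.1 in PNA2 libraries, against 2214 to 2330 (median 2297) in PBS libraries. All PNA2 libraries lay below all controls, and the log2 change was -0.31 ± 0.07 (adjusted p = 0.0113). The exact two-sided permutation test gave p = 0.00476, the smallest possible with 4 and 6 libraries. In all, 29 such tests were run, and their p-values are not adjusted. They were run only on members already called in the same libraries, so they are not independent support for those calls. ATP6V1C1, which links V1 to the stator and is released when the pump comes apart, had 896, 893, 1147 and 1149 in PNA2 libraries and 1166 to 1266 (median 1187) in PBS libraries. The groups did not overlap here either, and the log2 change was -0.25 ± 0.06 (adjusted p = 0.0161). The exact permutation p was 0.00476, and 0.01 within batches. Without replicate 2 the changes were -0.22 for ATP6V1A (adjusted p = 0.0129) and -0.21 for ATP6V1C1 (adjusted p = 0.0268). The 48 h libraries fall into 2 batches, which the labels do not name and which show as tied values shared only within a batch; the first held PNA2 replicates 1 and 2 and the second PNA2 replicates 3 and 4. The log2 change of ATP6V1A was -0.50 in the first (adjusted p = 0.00708) and -0.11 in the second (adjusted p = 0.38), and that of ATP6V1C1 was -0.40 (adjusted p = 0.00853) and -0.09 (adjusted p = 0.528). The difference between batches was not tested. Of the 10 calls made with all libraries, those of PSAP, AGA, CTSS and ATP6V1F did not pass within the first batch, and PSAP alone passed within the second. Over all members 6 were higher and 2 lower in the first batch, where 6.43% and 7.52% of all genes were (13.9% in either direction), and 1 was higher and 2 lower in the second, where 5.86% and 7.33% were (13.2% in either direction). PSAP had log2 changes of 0.65 in the first batch (adjusted p = 0.0689) and 0.52 in the second (adjusted p = 0.0015). ATP6V1F had 1420.1, 1705, 1546 and 1448 in PNA2 libraries and 1132 to 1431 (median 1254) in PBS libraries. Its change of 0.25 ± 0.08 (adjusted p = 0.0335) did not pass without PNA2 replicate 2 or 3 or without PBS replicate 1, 2 or 3 (adjusted p = 0.0626 to 0.0837). Without replicate 2, ATP6V0A1, a large V0 subunit of the proton path, was lower, with a log2 change of -0.32 ± 0.07 (adjusted p = 0.00564).

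At the lysosomal membrane no member passed with all libraries. Without replicate 2, SCARB2, the receptor that carries glucocerebrosidase to lysosomes, was lower in PNA2 libraries, with 483, 463 and 587 in replicates 1, 3 and 4, against 849 in replicate 2 and 596 to 841 (median 749) in PBS libraries. Its log2 change was -0.56 ± 0.09 (adjusted p = 0.000292), against -0.35 ± 0.14 with all libraries (adjusted p = 0.0931). LAMP1 had 1389.5 in replicate 1, 2030.4 in replicate 2, 1791 in replicate 3 and 1806 in replicate 4 of PNA2, and 1771 to 1989 (median 1898) in PBS libraries. Its change without replicate 2 was -0.23 ± 0.06 (adjusted p = 0.0149). Among the 6 autophagy genes MAP1LC3B alone passed. It had 1931, 4802, 2269 and 2466 in PNA2 libraries, against 1467 to 2094 (median 1816) in PBS libraries. Replicate 1 lay within the control range and replicate 2 far above every other library. The log2 change was 0.60 ± 0.19 with it (adjusted p = 0.0431) and 0.25 ± 0.06 without it (adjusted p = 0.00729). The MAP1LC3B call was lost without PBS replicate 1, 2, 4 or unnumbered a, or without PNA2 replicate 4 (adjusted p = 0.0549 to 0.0865). TFEB had 848, 1015, 1131 and 1037 in PNA2 libraries and 870.2 to 1188 (median 983) in PBS libraries, a log2 change of 0.00. The median change of the autophagy genes was 0.44 with replicate 2 and 0.01 without it. SQSTM1, the cargo receptor that binds ubiquitin, chosen after its values were seen, had 4826 in PNA2 replicate 2, 1299, 2185 and 2113 in PNA2 replicates 1, 3 and 4, and 961 to 2372 (median 2009) in PBS libraries.

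**Figure D3:**
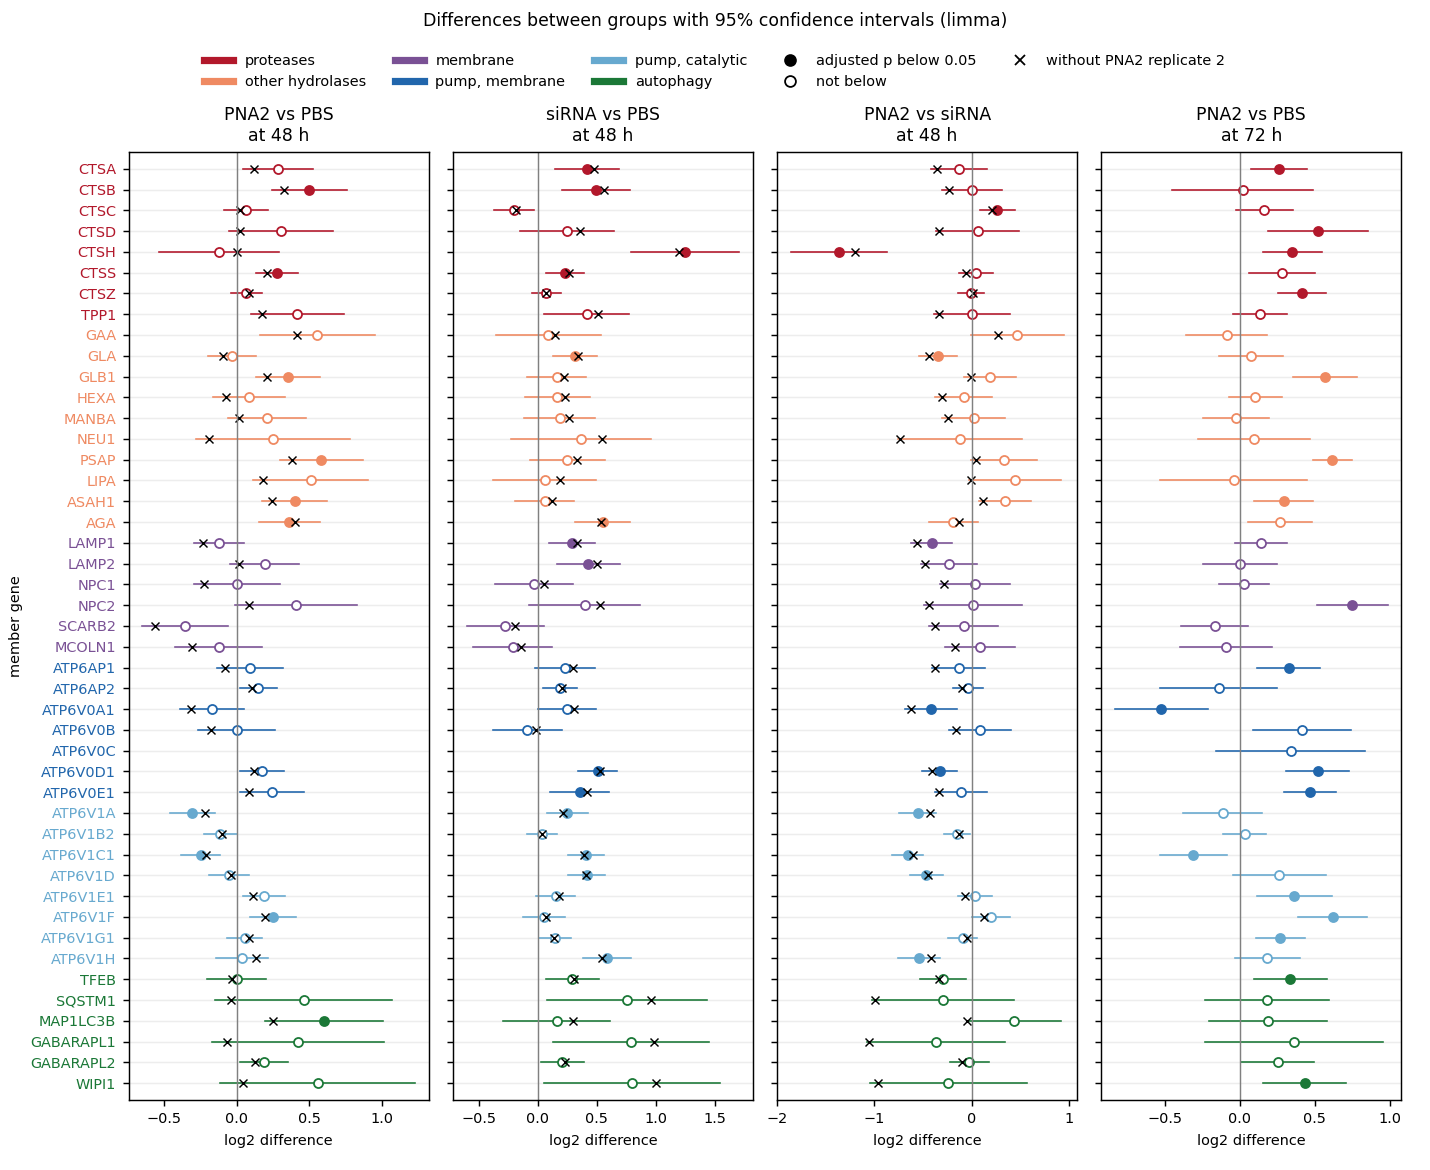
Log2 change of each member with its 95% interval in the 4 comparisons, grouped by role; filled symbols passed at an adjusted p of 0.05, and crosses give the estimate without PNA2 replicate 2 at 48 h. CTSL is not drawn. The hydrolases lie mostly to the right of 0 while ATP6V1A and ATP6V1C1 lie to the left for PNA2 against PBS and to the right for siRNA against PBS.

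The second comparison set the electroporated siRNA libraries against the same PBS libraries, so that the 2 comparisons with PBS at 48 h share their controls. With siRNA 14 of 44 members were higher and none lower, where 9.3% of all genes were higher and 8.13% lower (17.4% in either direction). They included 6 of 14 pump subunits, ATP6V1H, ATP6V0D1, ATP6V1D, ATP6V1C1, ATP6V0E1 and ATP6V1A, and 6 of 18 hydrolases, CTSH, AGA, CTSB, CTSA, GLA and CTSS, with LAMP1 and LAMP2. When PNA2 replicate 2 was left out of the fit, which takes its spread and its batch term from all libraries, 31 members were higher (16.1% of all genes) and none lower (14.8% of all genes, and 30.9% in either direction). With no batch term 6 members were called, all higher, where 3.58% of all genes were higher and 8.5% were called in either direction. Within the first batch, which holds all siRNA libraries, 12 members were higher (9.04% of all genes) and none lower (8.45% of all genes, and 17.5% in either direction). The median log2 change of the pump was 0.24 with all libraries and 0.26 without that library, that of the hydrolases 0.24 and 0.30, and that of the autophagy genes 0.52 and 0.63.

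ATP6V1H, the regulatory subunit of V1, had 700.4, 646, 659 and 641 in siRNA libraries, against 431 to 538 (median 475) in PBS libraries. Its groups did not overlap (log2 change 0.58 ± 0.09, adjusted p = 0.00116), and the exact permutation p was 0.00476. All siRNA libraries are in the first batch, so this test exchanged them with controls of the second. It cannot separate treatment from batch. ATP6V0D1, which joins the V0 ring to the V1 shaft, had 1845, 1927, 2101 and 1845 in siRNA libraries and 1213 to 1682 (median 1454) in PBS libraries, again without overlap (0.51 ± 0.08, adjusted p = 0.000946). For ATP6V1C1, lower with PNA2, the siRNA values of 1485, 1567, 1467 and 1493 all exceeded the PBS values of 1166 to 1266 (0.41 ± 0.07, adjusted p = 0.00171). ATP6V1A likewise had 2642, 2586, 2529 and 2621 in siRNA libraries, all above the controls (0.25 ± 0.08, adjusted p = 0.0436). Other members called were CTSA (0.41 ± 0.13, adjusted p = 0.0345), ATP6V1D (0.41 ± 0.07, adjusted p = 0.00187), ATP6V0E1 (0.35 ± 0.12, adjusted p = 0.046), GLA (0.31 ± 0.09, adjusted p = 0.0212), LAMP1 (0.29 ± 0.09, adjusted p = 0.0399) and CTSS (0.23 ± 0.08, adjusted p = 0.0446). AGA had 245, 209, 247 and 220.0 in siRNA libraries and 139.5 to 193.5 in PBS libraries (0.55 ± 0.11, adjusted p = 0.00382). CTSB had 490.0, 468, 551 and 543 in siRNA libraries, of which 1 lay within the PBS range of 303 to 476 (0.49 ± 0.14, adjusted p = 0.0214). LAMP2, the membrane glycoprotein of chaperone-mediated autophagy, had 1571, 1614, 1455 and 1629 in siRNA libraries and 1034 to 1524 (median 1185) in PBS libraries, which overlapped (0.43 ± 0.13, adjusted p = 0.0278). The calls of AGA, ATP6V1C1, ATP6V0D1, ATP6V1D and ATP6V1H held under every alternative tried.

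CTSH, a lysosomal aminopeptidase, showed the largest siRNA difference among the members. It had 2018, 2087, 2116 and 2126 in siRNA libraries, against 764 and 554 in PBS replicates 1 and 2 and 1431 to 1616 in the other 4 PBS libraries. All siRNA libraries lay above all controls, and the log2 change was 1.25 ± 0.22 (adjusted p = 0.00178; exact permutation p = 0.0286). All siRNA libraries belong to the first batch together with those 2 controls and PBS replicate 4, so the permutation test exchanged libraries across batches here too. With the batches aligned on their controls the change was 0.84 (adjusted p = 0.000192), and with no batch term 0.88 (adjusted p = 0.0519). The other siRNA calls lost on leaving out single libraries were those of CTSB, CTSS, ATP6V1A, CTSA, GLA, LAMP1, LAMP2 and ATP6V0E1, with adjusted p of 0.0502 to 0.161. PBS replicates 1 and 2 were among these libraries for each of the 8 genes, and the count of members called was 6 without PBS replicate 1, where 1484 of all 14105 genes tested were called, and 6 without PBS replicate 2, where 1217 of 14119 were (8.62%). It was 8 without siRNA replicate 1, 2 or 3 and 6 without siRNA replicate 4, where 10.3% to 12% of all genes were called. No autophagy gene passed with all libraries, whereas all 6 did without PNA2 replicate 2, led by WIPI1, a phosphoinositide-binding protein of early autophagosomes (1.00 ± 0.18, adjusted p = 0.000387), GABARAPL1, a relative of MAP1LC3B (0.98 ± 0.12, adjusted p = 2.19e-05), and SQSTM1 (0.95 ± 0.12, adjusted p = 2.68e-05). SQSTM1 had 2552, 2298, 2446 and 2356 in siRNA libraries, against 1080 and 961 in PBS replicates 1 and 2, 1728 in replicate 4 and 2290 to 2372 in the 3 controls of the second batch. Its siRNA values thus exceeded the controls of their own batch and overlapped those of the second. WIPI1 had 247, 251, 283 and 240.1 in siRNA libraries, against 91.1 and 99.8 in PBS replicates 1 and 2 and 172 to 274 in the other controls. TFEB had 1184, 1183, 1267 and 1064 in siRNA libraries, within or above the PBS range of 870.2 to 1188 (0.29 ± 0.11, adjusted p = 0.0667 with all libraries and 0.0238 without PNA2 replicate 2).

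**Figure D4:**
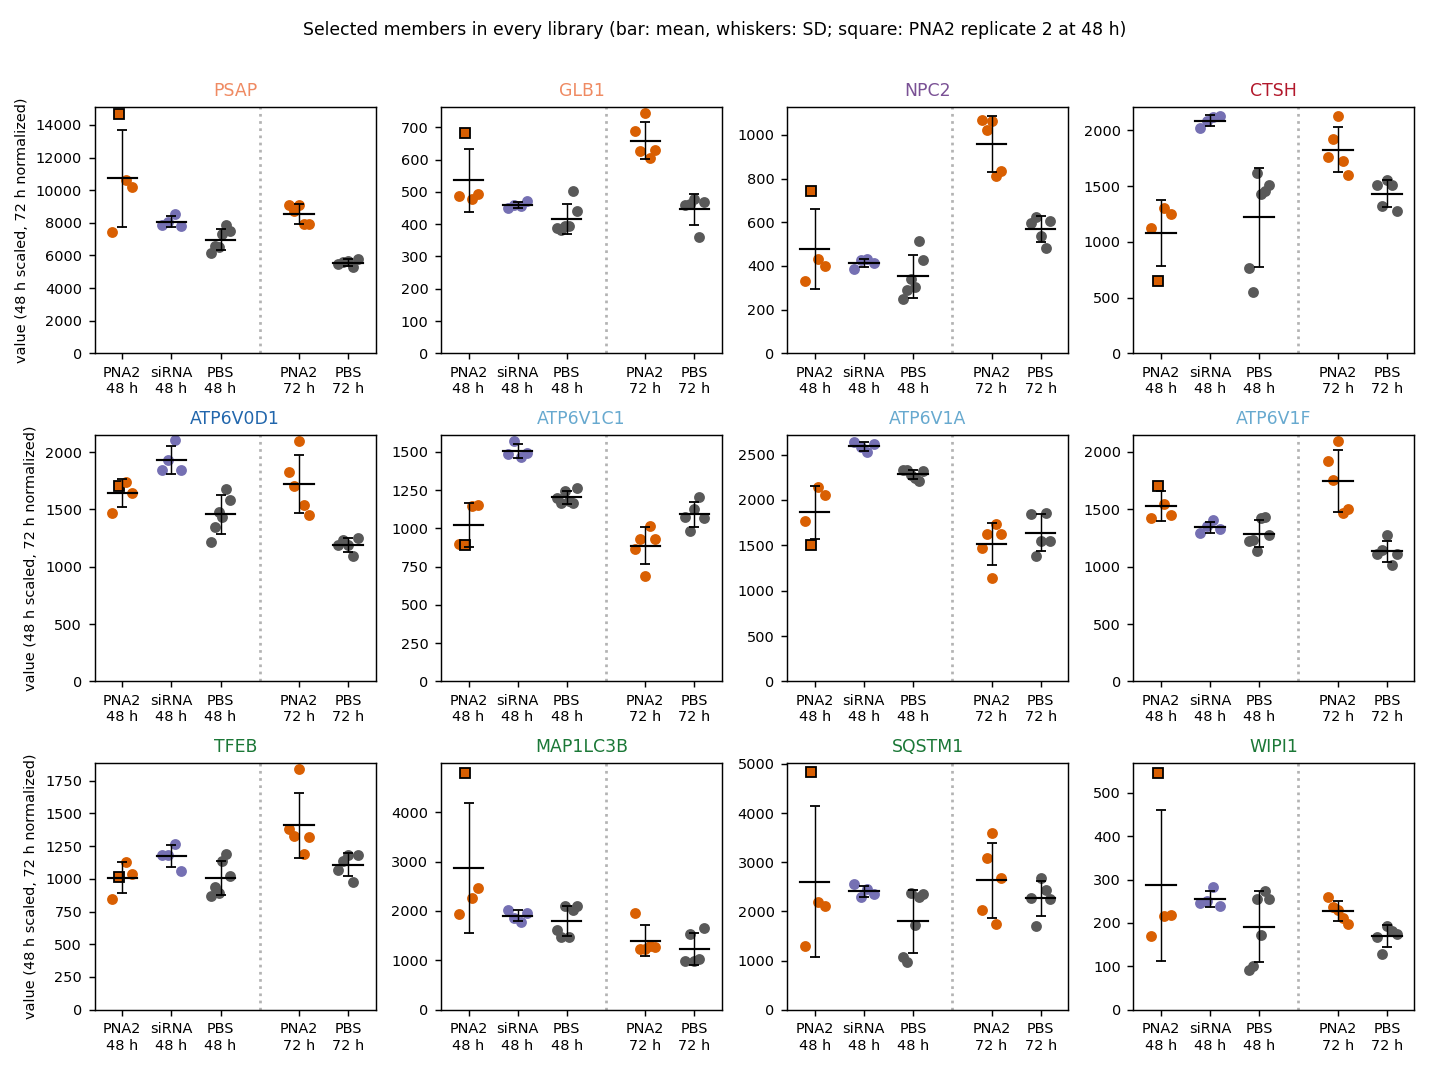
Values of 12 members in every library, as scaled values at 48 h (PNA2, siRNA, PBS from left to right) and normalized reads at 72 h (PNA2, PBS). Points are libraries, bars are group means with the SD as whiskers, and the square marks PNA2 replicate 2 at 48 h; ATP6V1A and ATP6V1C1 run low in PNA2 and high in siRNA libraries at 48 h, and PSAP, GLB1, NPC2 and ATP6V1F are separated from PBS at 72 h.

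The difference between both treatments at 48 h was tested directly. Of 44 members 9 were lower in PNA2 than in siRNA libraries and 1 was higher, where 12.4% of all genes were lower and 11.5% higher (23.9% in either direction). Without PNA2 replicate 2, 24 were lower (14.6% of all genes) and none higher (13.5% of all genes, and 28% in either direction). Within the first batch 7 were lower (11.7% of all genes) and none higher (11.1% of all genes, and 22.8% in either direction). The pump held 6 of the 9 lower members. ATP6V1C1 differed by -0.66 ± 0.08 (adjusted p = 3.71e-05), ATP6V1A by -0.56 ± 0.09 (adjusted p = 0.000399), ATP6V1H by -0.55 ± 0.10 (adjusted p = 0.00138) and ATP6V1D, a subunit of the rotating shaft, by -0.46 ± 0.08 (adjusted p = 0.000661). ATP6V1D had 497, 446, 484 and 524 in PNA2 libraries and 637, 599, 627 and 666 in siRNA libraries. For these 4 subunits every PNA2 library lay below every siRNA library (exact permutation p = 0.0286, the smallest possible with 4 and 4 libraries). Among the other pump subunits, every PNA2 library also lay below every siRNA library for ATP6V0D1 and ATP6V1B2, but above for ATP6V1F. ATP6V1B2 and ATP6V1F did not pass. PNA2 libraries also all lay above for GLB1, ASAH1 and CTSC, of which only CTSC passed. The share of all genes with such a separation was not counted. The permutation tests of this comparison also exchanged libraries across batches, as PNA2 replicates 3 and 4 belong to the second. ATP6V0D1 differed by -0.33 ± 0.08 (adjusted p = 0.0106) and ATP6V0A1 by -0.42 ± 0.12 (adjusted p = 0.0237). ATP6V0A1 had 721, 1110.1, 899 and 839 in PNA2 libraries and 1064, 1134, 1192 and 1157 in siRNA libraries. The ATP6V0A1 groups overlapped through PNA2 replicate 2 (exact permutation p = 0.0571), and a call no longer held when PNA2 replicate 1 (adjusted p = 0.114) or siRNA replicate 3 (adjusted p = 0.0542) was left out. CTSH was lower, with a difference of -1.37 ± 0.23 (adjusted p = 0.000721), with 1123, 650.4, 1302 and 1251 in PNA2 libraries, where replicate 2 was lowest. GLA, the lysosomal alpha-galactosidase, and LAMP1 were lower, with differences of -0.35 ± 0.09 (adjusted p = 0.0137) and -0.41 ± 0.10 (adjusted p = 0.00724). CTSC, a dipeptidyl peptidase, was higher with 1262, 1563, 1429 and 1342 in PNA2 libraries and 1195, 1229, 1167 and 1254 in siRNA libraries (0.26 ± 0.09, adjusted p = 0.0339). Its call was lost without PNA2 replicate 2 or 3, or without any single siRNA library (adjusted p = 0.0601 to 0.0922), and under 6 other alternatives. Values not rescaled ended the calls of ATP6V0D1, ATP6V0A1, GLA and LAMP1, and of ATP6V1D and ATP6V1H where the batch term was also left out. The ATP6V0D1 call was also lost with no batch term and within the first batch (adjusted p = 0.0517 to 0.289 over 5 alternatives). The calls of ATP6V1A, ATP6V1C1 and CTSH held under every alternative tried. Without PNA2 replicate 2, GABARAPL1 (-1.05 ± 0.15, adjusted p = 5.19e-05), SQSTM1 (-0.99 ± 0.15, adjusted p = 8.48e-05) and NEU1, the lysosomal sialidase (-0.73 ± 0.13, adjusted p = 0.000341), were also lower in PNA2 than in siRNA libraries. Only PNA2 replicate 1 then shared the batch of the siRNA libraries, so these differences rest in part on the batch term. SQSTM1 had 1299 in PNA2 replicate 1, 2185 and 2113 in replicates 3 and 4, and 2298 to 2552 in siRNA libraries. Over the same PNA2 libraries GABARAPL1 had 157 to 223, against 258.5 to 287 in siRNA libraries. NEU1 had 237 to 312, against 327 to 356.

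At 72 h the comparison of PNA2 with PBS rests on the deposited normalized reads. The whole reads recovered from them came to 11.25 to 13.69 M reads per PNA2 library and 8.22 to 13.28 M reads per PBS library. Of 45 members tested 16 were higher and 2 lower, where 12.1% of all genes were higher and 11.7% lower (23.8% in either direction). The 16 were 7 of 18 hydrolases (PSAP, GLB1, CTSD, CTSZ, CTSH, ASAH1 and CTSA), 6 of 15 pump subunits (ATP6V1F, ATP6V0D1, ATP6V0E1, ATP6V1E1, ATP6AP1 and ATP6V1G1), NPC2, WIPI1 and TFEB. ATP6V0A1 and ATP6V1C1 were lower. The median log2 change was 0.21 for the hydrolases, 0.27 for the pump, 0.29 for the autophagy genes, 0.01 for the lysosomal membrane and -0.01 for all genes.

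NPC2, the soluble carrier that hands cholesterol to NPC1, changed most. It had 1071, 1021, 1066, 811 and 834 normalized reads in PNA2 libraries, against 599, 624.9, 539, 481 and 605 in PBS libraries. Every PNA2 library exceeded every control, and the log2 change was 0.75 ± 0.11 (adjusted p = 0.00131). PSAP had 9060, 8696, 9094, 7918 and 7917 in PNA2 libraries and 5454, 5605, 5679, 5266 and 5801 in PBS libraries. These groups were also apart, with means of 8537 ± 586 in PNA2 and 5561 ± 207 in PBS libraries (SD, n = 5 each; 0.62 ± 0.06, adjusted p = 0.000153). GLB1 had 689, 627, 746, 605 and 629 in PNA2 libraries and 459, 462, 477, 361 and 470.2 in PBS libraries, without overlap (0.57 ± 0.10, adjusted p = 0.00263). CTSD, the aspartic protease of the lysosome, had 1662, 1600, 2041, 2026 and 1409 in PNA2 libraries and 1574, 1490, 1005, 1041 and 1044 in PBS libraries. PBS replicates 1 and 2 overlapped the PNA2 libraries, and the CTSD call (0.52 ± 0.15, adjusted p = 0.0299) was lost without PBS replicate 3, 4 or 5 or PNA2 replicate 1, 3 or 4 (adjusted p = 0.0509 to 0.0721). CTSZ had 3034, 3019, 3436, 2653 and 2854 in PNA2 libraries and 2223, 2256, 2335, 2076 and 2326 in PBS libraries (0.41 ± 0.07, adjusted p = 0.00305), and CTSH had a log2 change of 0.35 ± 0.09 (adjusted p = 0.0172). Neither group of libraries overlapped the other for these 2 cathepsins. ASAH1 and CTSA, the protease that protects GLB1 and NEU1, changed by 0.29 (adjusted p = 0.0368) and 0.26 (adjusted p = 0.0425). Each call was lost in all but 1 or 2 of the 10 fits that left out a library: that of ASAH1 held without PBS replicate 2 or PNA2 replicate 3, that of CTSA without PNA2 replicate 4 (adjusted p = 0.0501 to 0.0981 where lost).

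Among the pump subunits at 72 h ATP6V1F had 1924, 1753, 2095, 1467 and 1505 normalized reads in PNA2 libraries, against 1114, 1142, 1273, 1018 and 1114 in PBS libraries. The groups did not overlap (0.62 ± 0.11, adjusted p = 0.0026). ATP6V0D1 had 1824, 1701, 2094, 1537 and 1448 in PNA2 libraries and 1189, 1233, 1190.2, 1097 and 1254 in PBS libraries, likewise apart (0.52 ± 0.10, adjusted p = 0.00377). ATP6V0E1, a small V0 subunit, changed by 0.47 ± 0.08 (adjusted p = 0.00248), ATP6AP1, an accessory subunit of V0, by 0.33 ± 0.10 (adjusted p = 0.031), and the stalk subunits ATP6V1E1 and ATP6V1G1 by 0.36 ± 0.12 (adjusted p = 0.0407) and 0.27 ± 0.07 (adjusted p = 0.0222). In the opposite direction, ATP6V0A1 had 519.8, 515, 490.2, 456 and 758 in PNA2 libraries and 757, 778, 621, 886 and 862 in PBS libraries. PNA2 replicate 5 lay among the controls, while the other 4 PNA2 libraries lay below all of them (-0.52 ± 0.14, adjusted p = 0.0205). ATP6V1C1 had 864, 929, 690.4, 1017 and 933 in PNA2 libraries and 1075, 985.3, 1129, 1205 and 1065 in PBS libraries, with 1 PNA2 library inside the control range (-0.31 ± 0.10, adjusted p = 0.0482). ATP6V1A, lower at 48 h, had 1468, 1620.1, 1142, 1731 and 1627 in PNA2 libraries and 1842, 1384, 1553, 1857 and 1553 in PBS libraries, which overlapped and did not pass. ATP6V0C had 3233, 1178, 3192, 2415 and 2541 in PNA2 libraries and 1796 to 2046 in PBS libraries: 4 PNA2 libraries lay above and 1 below all controls, and the difference did not pass with all libraries but did without PNA2 replicate 2 (0.59, adjusted p = 0.0056). Leaving out PBS replicate 4 ended the calls of ATP6V0A1 (adjusted p = 0.053) and ATP6V1G1 (adjusted p = 0.055) and left 9 members called, all higher, where 17.6% of all genes were called. ATP6V1C1 and ATP6V1E1 were lost in 8 of 10 such fits each (adjusted p = 0.0537 to 0.11), and held without PBS replicate 2 or PNA2 replicate 4 for ATP6V1C1 and without PNA2 replicate 2 or 4 for ATP6V1E1. ATP6AP1 was lost without PBS replicate 1 or 4 or PNA2 replicate 2, 3 or 5 (adjusted p = 0.0542 to 0.0721). Calls of PSAP, GLB1, NPC2, CTSZ, CTSH, ATP6V1F, ATP6V0D1 and ATP6V0E1 held under every alternative tried.

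For the autophagy genes at 72 h, WIPI1 had 259, 237, 230.5, 212 and 198 in PNA2 libraries and 168, 127, 194, 182 and 176 in PBS libraries. The groups were apart (0.43 ± 0.13, adjusted p = 0.03), though the call was lost without PBS replicate 1 or PNA2 replicate 1 or 2 (adjusted p = 0.0591 to 0.0728). TFEB had 1379, 1327, 1837, 1189 and 1320 in PNA2 libraries, against 1065, 1133, 1184, 975 and 1180.1 in PBS libraries. All PNA2 libraries exceeded all controls, the nearest by a small margin, and the change was 0.34 ± 0.11 (adjusted p = 0.046). It no longer passed in 8 of the 10 fits that left out a library, that is in all but those without PNA2 replicate 3 or 4 (adjusted p = 0.0544 to 0.106). MAP1LC3B had 1961, 1233, 1230.1, 1292 and 1267 in PNA2 libraries and 993, 1529, 986, 1021 and 1648 in PBS libraries, which overlapped widely. SQSTM1, GABARAPL1 and GABARAPL2 did not pass either.

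Both time points with PNA2 can be set side by side, since they share no library. GLB1, PSAP, ASAH1 and ATP6V1F were higher at both, with all libraries, which is 50% of the 8 higher members at 48 h and 25.0% of the 16 at 72 h. Of all genes higher at 48 h 31.1% were also higher at 72 h, and of those higher at 72 h 24.6% were also higher at 48 h. Without PNA2 replicate 2, GLB1 and ATP6V1F were not called at 48 h, and PSAP and ASAH1 were left, 33.3% of the 6 higher members at 48 h and 12.5% of the 16 at 72 h, against 34.9% and 29% for all genes. ATP6V1C1 was lower at both times with and without that library. With all libraries it was 50% of the 2 lower members at each time, against 27.9% and 24.1% for all genes. Without PNA2 replicate 2, ATP6V1C1 and ATP6V0A1 were lower at both times. They were 40% of the 5 lower members at 48 h and 100% of the 2 at 72 h, against 27.2% and 25.3%. The ATP6V1C1 call at 48 h was lost with values not rescaled (-0.05). That at 72 h was lost in 8 of the 10 fits that left out a library. At 48 h PSAP averaged 10718 ± 2981 in PNA2 and 6971 ± 661 in PBS libraries (SD, n = 4 and 6), and 9405 ± 1729 without PNA2 replicate 2. ATP6V0A1 was lower at 72 h and, without PNA2 replicate 2, at 48 h. CTSH was higher with siRNA at 48 h and with PNA2 at 72 h, while with PNA2 at 48 h its groups overlapped. The difference between the time points was not tested, because the tables were normalized separately.

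**Figure D5:**
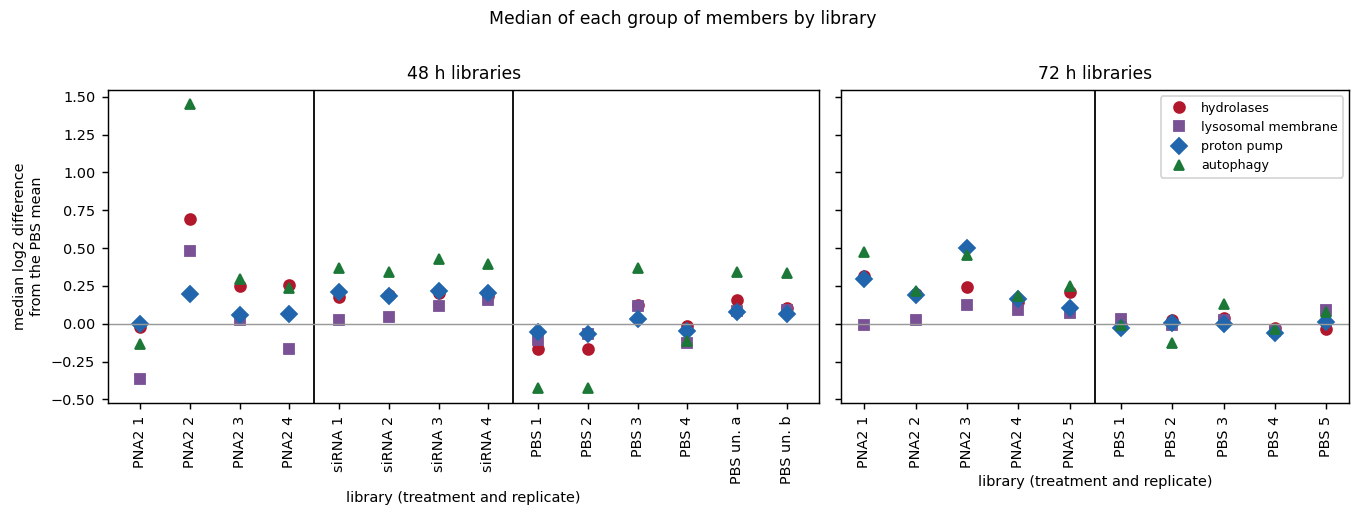
Median log2 difference from the PBS mean over the members of each role group, by library, for hydrolases, lysosomal membrane, proton pump and autophagy genes at 48 h (PNA2, siRNA, PBS) and 72 h (PNA2, PBS). Each symbol is 1 library, with circles for hydrolases, squares for membrane, diamonds for the pump and triangles for autophagy genes; PNA2 replicate 2 at 48 h reaches 0.691 for the hydrolases and 1.45 for the autophagy genes, and PBS replicates 1 and 2 lie lowest among the controls for the autophagy genes.

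Medians over the groups of genes were also taken library by library; differences between the groups of genes were not tested. Over the hydrolases the median log2 difference from the PBS mean was -0.02, 0.69, 0.25 and 0.26 in PNA2 replicates 1 to 4 at 48 h, and 0.18 to 0.20 in the siRNA libraries. For the pump it was 0.00, 0.20, 0.06 and 0.07 in the PNA2 libraries and 0.19 to 0.21 in the siRNA libraries. The lysosomal membrane members had medians of -0.36, 0.48, 0.02 and -0.17 in PNA2 replicates 1 to 4. For the autophagy genes it was -0.13, 1.45, 0.30 and 0.24 in PNA2 libraries, 0.34 to 0.43 in siRNA libraries, -0.42 and -0.43 in PBS replicates 1 and 2, -0.12 in PBS replicate 4 and 0.34 to 0.37 in the 3 PBS libraries of the second batch. For the autophagy genes the controls of the second batch thus lay level with the siRNA libraries, and those of the first batch below it. At 72 h the PNA2 libraries had medians of 0.14 to 0.31 for the hydrolases and 0.11 to 0.50 for the pump, and the PBS libraries -0.03 to 0.04 for the hydrolases and -0.06 to 0.01 for the pump.

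Of the 6 members whose promoters hold TCACGTGA, 0 were called with PNA2 at 48 h, beside 4 higher and 0 lower of 26 tested members whose promoters lack it; of all genes 16.7% were called in either direction. LAMP1 was lower without PNA2 replicate 2 (1 of 6), beside 2 higher and 2 lower of 26 and 17.9% of all genes. With siRNA 3 of the 6 were higher, CTSA, LAMP1 and ATP6V0D1, beside 4 of 26 and 9.3% of all genes, and without PNA2 replicate 2 it was 3 of 6 beside 19 of 26 and 16.1% of all genes. LAMP1 and ATP6V0D1 were lower in PNA2 than in siRNA libraries (2 of 6), beside 1 higher and 4 lower of 26. Of all genes 12.4% were lower and 11.5% higher. Without PNA2 replicate 2 it was 3 of 6, with CTSA, beside 15 of 26 and 14.6% of all genes lower. At 72 h 3 of the 6 were higher, CTSA, ATP6V0D1 and ATP6V1G1, beside 10 higher and 1 lower of 27 and 12.1% of all genes higher.

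Related genes outside the 46 were counted from fixed lists, and the counts stand beside the shares of all genes. With PNA2 at 48 h 8.11% of all genes were higher and 8.57% lower, with siRNA 9.3% and 8.13%, and with PNA2 at 72 h 12.1% and 11.7%. Without PNA2 replicate 2 the shares were 8.58% higher and 9.29% lower with PNA2 at 48 h, and 16.1% and 14.8% with siRNA. Of 32 other hydrolases tested at 48 h, 2 (6.25%) were higher with PNA2 (PLBD2 0.63 ± 0.15, adjusted p = 0.0134, and NAAA 0.39 ± 0.09, adjusted p = 0.0091) and 1 lower (MAN2B1 -0.37 ± 0.05, adjusted p = 0.000612). With siRNA 7 (21.9%) were higher, led by ACP5 (1.05 ± 0.25, adjusted p = 0.0106) and SMPD1, the acid sphingomyelinase (0.95 ± 0.25, adjusted p = 0.0167), and 1 lower. These counts became 2 higher and 3 lower with PNA2, and 14 higher and 1 lower with siRNA, when PNA2 replicate 2 was left out. At 72 h 5 of 31 (16.1%) were higher with PNA2, led by DNASE2 (0.58 ± 0.11, adjusted p = 0.00325), and 2 lower.

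Of 13 other pump subunits and assembly factors tested at 48 h, TCIRG1, a paralog of ATP6V0A1, alone passed with PNA2 and was lower (-0.58 ± 0.10, adjusted p = 0.00208). It was also lower at 72 h (-0.62 ± 0.09, adjusted p = 0.00119), when 2 of 14 were lower and 2 higher. In the 48 h comparison of PNA2 with siRNA it differed by -0.68 ± 0.12 (adjusted p = 0.00114). With siRNA 2 of 13 were higher, DMXL2 (0.76 ± 0.20, adjusted p = 0.0165) and DMXL1 (0.35 ± 0.09, adjusted p = 0.0127), both pump assembly factors, and none lower. When PNA2 replicate 2 was left out, 1 was higher and 1 lower with PNA2, and 2 were higher with siRNA.

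Of 23 other lysosomal membrane genes 3 were higher and 0 lower with PNA2 at 48 h, led by HGSNAT (0.85 ± 0.14, adjusted p = 0.00129) and CD63 (0.55 ± 0.13, adjusted p = 0.00942), 2 were higher and 1 lower with siRNA, and 4 were higher and 2 lower with PNA2 at 72 h. Leaving out PNA2 replicate 2 gave 3 higher and 2 lower with PNA2, and 4 higher and 1 lower with siRNA. Genes that sort proteins to lysosomes had 0 higher and 3 lower of 20 with PNA2 at 48 h (0 and 4 without PNA2 replicate 2), 1 higher and 1 lower with siRNA (3 and 1 without it), and 1 higher and 4 lower at 72 h. GGA1, an adaptor of the mannose-phosphate route, had the largest change among them at 72 h (-0.82 ± 0.13, adjusted p = 0.00175; -0.31 at 48 h).

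Of 42 other autophagy genes 4 were higher and 2 lower with PNA2 at 48 h, 6 were higher and 2 lower with siRNA, led by OPTN, a cargo receptor (0.81 ± 0.12, adjusted p = 0.000618), and 7 were higher and 1 lower of 41 at 72 h. Of 41 tested without PNA2 replicate 2, 3 were higher and 5 lower with PNA2 at 48 h, and 10 were higher and 2 lower with siRNA. Of 25 genes of the TFEB family and of mTORC1 control at the lysosome, 0 passed with PNA2 at 48 h, against 3 higher and 1 lower without PNA2 replicate 2. With siRNA 4 were higher and 1 lower, against 9 higher and 1 lower without that library. At 72 h 5 were higher and 3 lower, led by LAMTOR1, which anchors mTORC1 at the lysosome (0.89 ± 0.19, adjusted p = 0.00669).

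Several members passed in none of the 4 comparisons with all libraries; of those, ATP6V1B2, TPP1 and LIPA are given by library and were chosen after their values were seen, as were SCARB2, WIPI1 and ATP6V0C above. They include HEXA, MANBA, LIPA, TPP1, GAA and NEU1 among the hydrolases, NPC1, SCARB2 and MCOLN1 at the lysosomal membrane, ATP6AP2, ATP6V0B and ATP6V1B2 in the pump, and SQSTM1, GABARAPL1 and GABARAPL2 in autophagy. ATP6V0B, the V0 ring subunit with the highest level per kilobase among tested V0 members at 48 h, had 1611, 2357, 1538 and 1364 in PNA2 libraries, 1587, 1493, 1721 and 1594 in siRNA libraries and 1503 to 2075 (median 1642) in PBS libraries, which overlapped. ATP6V1B2, the partner of ATP6V1A in the catalytic ring, had 1085, 1053, 1073 and 1044 in PNA2 libraries and 1062 to 1202 (median 1157) in PBS libraries, with 2 PNA2 libraries inside the control range. TPP1, a tripeptidyl peptidase, had 2789 in PNA2 replicate 2, 1342, 2012 and 1809 in PNA2 replicates 1, 3 and 4, and 1114 to 1754 (median 1521) in PBS libraries (0.42 ± 0.15, adjusted p = 0.07). LIPA, the acid lipase, had 964 in PNA2 replicate 2 and 409 to 500 in the others, against 324 to 492 in PBS libraries (0.51 ± 0.19, adjusted p = 0.0707).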

How the data were processed

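RNA-seq of 24 U2932 libraries was read from the authors' gene tables. The build was GRCh38, and the tools named were DESeq2, HTSeq 0.11.0, SAMtools 1.7, Trimmomatic and HISAT2 2.2.1, all per the submitters' processing notes. Kits for total RNA and for mRNA are both named in the labels, and the extraction text names 48 h only. The deposited 48 h values are treated as a score: counts that the authors adjusted per gene and batch, some below 0, not divided by depth, with sums of 14881651 to 16033819 in PNA2, 12625943 to 16167951 in siRNA and 11121494 to 14460806 in PBS libraries. Batches of 9 and 5 libraries were read from values tied within and never between them. The deposited 72 h signal is counts divided by a size factor: whole reads were recovered for 100.0% of values (tolerance 0.01).

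At 48 h values below 0 were set to 0, libraries scaled by TMM, and limma (3.58.1, R 4.3.3) fitted with a variance trend on log2(value + 1), with group and batch, on genes with 10 or more in at least 4 libraries (14136 genes). At 72 h it was fitted with group only, 10 or more in at least 5 libraries (11985 genes). Fold changes on this scale understate changes of low genes. Benjamini-Hochberg adjustment was over all genes tested, threshold 0.05, with no fold minimum. The adjustment by batch, with all siRNA libraries in the first batch, can move part of a siRNA effect into the controls. edgeR 4.0.16 called 18 members on the recovered 72 h reads and DESeq2 1.42.0 called 20, against 18 in limma. The shares of all genes called were 23.7% in edgeR, 27.7% in DESeq2 and 23.8% in limma. The fits were tested on simulated data. Members, lists and tests were chosen with earlier results of these data known. All members may be named. Library values, some as ranges and not for every group, are given for 3 kinds of members. These are TFEB, at most the 6 called members with the largest change per comparison and direction, and the member highest per length in each role. Such values are also given for SCARB2, SQSTM1, WIPI1, ATP6V0C, ATP6V1B2, TPP1, LIPA, GABARAPL1 and NEU1, chosen after their values were seen. The other genes named are at most the 3 largest called per list and comparison. Replicate numbers showed no sign of pairing samples and were not used to pair them outside the replicate block. Alternatives were another pseudocount, filter, scaling, batch term or count test, and leaving out single libraries.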

Additional observations from a re-analysis of the deposited data

Results flagged for a closer look

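Of 110 groups of values for 22 members, 10 held a library farther from its nearest neighbour than Dixon's 95% limit allows, where chance alone gives about 1 in 20. At 72 h PNA2 replicate 1 was far above the other PNA2 libraries for MAP1LC3B (1961.0 normalized reads) and CTSB (1215.8), PNA2 replicate 3 was far below for ASAH1 (522.8), and PNA2 replicate 5 was far above for ATP6V0A1 (758.3) and far below for LAMP1 (1860.8). Among the PBS libraries at 72 h replicate 2 was low for CTSB (482.4), replicate 4 low for GLB1 (360.5) and replicate 1 high for ATP6V0B (959.8). At 48 h PNA2 replicate 2 was high for GLB1 (681.4 scaled value), and the PBS library unnumbered a was high for ATP6V0B (2074.9).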

How the results depend on the processing

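Direction and call were kept under every alternative by 5 of 14 members called with siRNA, 3 of 10 in PNA2 against siRNA, 8 of 18 at 72 h and 0 of 10 in PNA2 against PBS at 48 h. For PNA2 against PBS at 48 h 10 members were called, with 16.7% of all genes. With values not rescaled 17 members were called, all higher, with or without the batch term (15.4% of all genes with it, 15.6% without). In the second batch alone 3 were called (13.2% of all genes). Leaving out 1 library gave 7 to 14 members and 12.4% to 22.4% of all genes. For siRNA against PBS 14 members were called, with 17.4% of all genes. There were 6 without a batch term (8.5% of all genes) and 22 not rescaled (15.5%). With no filter on low values there were 8 (6.65%), and with a replicate block 7 (6.99%). Leaving out 1 library gave 6 to 31 members and 8.62% to 30.9% of all genes. For PNA2 against siRNA 10 members were called, with 23.9% of all genes. There were 5 not rescaled (12.6% of all genes), 3 also without a batch term (8.45%) and 5 with a replicate block (13%). Leaving out 1 library gave 8 to 24 members and 18.3% to 28% of all genes. At 72 h 18 members were called, with 23.8% of all genes, and leaving out 1 library gave 9 to 17 members and 17.5% to 27.9% of all genes. Not rescaling moved the median of all genes by 0.19 for PNA2 and 0.22 for siRNA at 48 h. The alternatives that combine another setting with leaving out PNA2 replicate 2 were chosen after seeing the data. Shares of all genes are not given for them, so these counts cannot be read as particular to the members. Not rescaled, 7 members were called for PNA2 against PBS (11 rescaled) and 12 for PNA2 against siRNA (24 rescaled). Without a batch term 16 were called for siRNA against PBS (31 with it) and 7 for PNA2 against siRNA. TFEB at 48 h with PNA2 (0.00) turned to -0.0744 within the first batch, and ranged from -0.0524 to 0.0676 on leaving out single libraries (-5e-04 without the PBS library unnumbered b). The causes were not tested. Same-numbered libraries deviated together with correlations of -0.352 to 0.108, which show no sign of pairing but cannot exclude it. With the replicate block 7 members were called for PNA2 at 48 h (6.01% of all genes) and 16 at 72 h (23.1% of all genes). Values at 48 h carry no read depth of their own.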
